A study of Homo sapiens with 24 samples.

Results

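A set of 10 genes was followed across genotypes and stages. The genes were chosen by their counts, as genes much lower in HAR123-KO, cHAR123 and mHAR123 cells than in hHAR123 cells. They comprise 5 protein-coding genes (ZNF717, ZNF300, ZNF572, C9orf64 and CTSF) and 5 long noncoding RNAs (lncRNAs) known by their Ensembl identifiers, 10 of the 61551 genes in the count table. The choice used the contrasts with hHAR123, so levels, folds and call counts in those contrasts only describe the genes and are no evidence for them. The description held for 9 of the 10 genes at both stages. ZNF717 went against it, being nearly silent in HAR123-KO only and at 88.6% to 121% of the hHAR123 level in cHAR123 and mHAR123.

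The cells were H9 (WA09) human embryonic stem cells (hESCs), an established line, with 4 genotypes at the HAR123 element, a human accelerated region in an intron of SMG6 that acts as a neural enhancer. hHAR123 cells were unedited, HAR123-KO cells had lost both alleles to CRISPR-Cas9, and cHAR123 and mHAR123 cells carried the chimpanzee or the mouse ortholog in place of the human sequence. RNA was sequenced from untreated hESCs (ESC) and from neuroectoderm (ECTO) made by 5 days in Noggin (500 ng/ml) and SB431542 (10 µM, an inhibitor of TGF-β family signalling), with 3 libraries per genotype and stage and 24 in all. The study used 2 independent clones per genotype, but which clone a library came from is not given in the sources used here, so p-values measure the spread between these libraries, and a difference between clones cannot be told apart from a difference between genotypes. The edited cells had also passed through nucleofection and the selection of positive clones. How the hHAR123 clones were derived is not given in the sources used here. HAR123 itself is not a gene of the table, so the counts do not check the edit.

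Library totals ranged from 23334732 to 35198684 counts in ESCs and from 21022748 to 25978892 in ECTO. Summed hESC markers lay between 5120 and 5510 CPM (counts scaled to the library total) in the 12 ESC libraries, and summed neuroectoderm markers between 27.6 and 38.7. HAR123-KO stood apart in ECTO, with hESC markers at 1700 to 1740 against 2130 to 2310 in the other genotypes and neuroectoderm markers at 1000 to 1010 against 1350 to 1490. The 4 neural crest markers (FOXD3, SOX10, TFAP2A and PAX3) summed to 1000 to 1010 CPM in HAR123-KO ECTO against 101 to 108 in hHAR123 ECTO, 220 to 229 in cHAR123 and 242 to 245 in mHAR123, while in ESCs they lay between 37.6 and 45.0 in all libraries. Mesoderm and endoderm markers summed to at most 3.28. In bulk RNA, fewer cells of a type and less RNA per cell cannot be told apart. The ECTO columns of cHAR123 and mHAR123 need care, because the base means that the study's supplementary table lists for cHAR123 matched the columns labelled mHAR123 for 117 of 117 genes, and those listed for mHAR123 matched the columns labelled cHAR123 for 114 of 114. Values are given by column label. LINC01090, a lncRNA chosen after its values were seen, had 0 to 7 counts in the ESC libraries and 0 to 4 in the ECTO libraries labelled cHAR123, and at least 121 in each of the others.

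ZNF717, ZNF300 and ZNF572 encode zinc finger proteins of the C2H2 class. ZNF717 and ZNF300 belong to the KRAB family, whose members bind DNA through arrays of zinc fingers and recruit the co-repressor TRIM28, and hence histone methylation and heterochromatin, to their sites. C9orf64, now named QNG1, encodes the enzyme that frees the base queuine from queuosine nucleotides so that it can be reused for the wobble position of certain tRNAs. CTSF encodes cathepsin F, a cysteine protease of the lysosome. Promoters rich in CpG dinucleotides, such as those of many zinc finger genes, can be switched off by DNA methylation in cultured pluripotent cells, and such states differ between lines and clones. The roles of the 5 lncRNAs are not given in the annotation used.

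**Figure D1:**
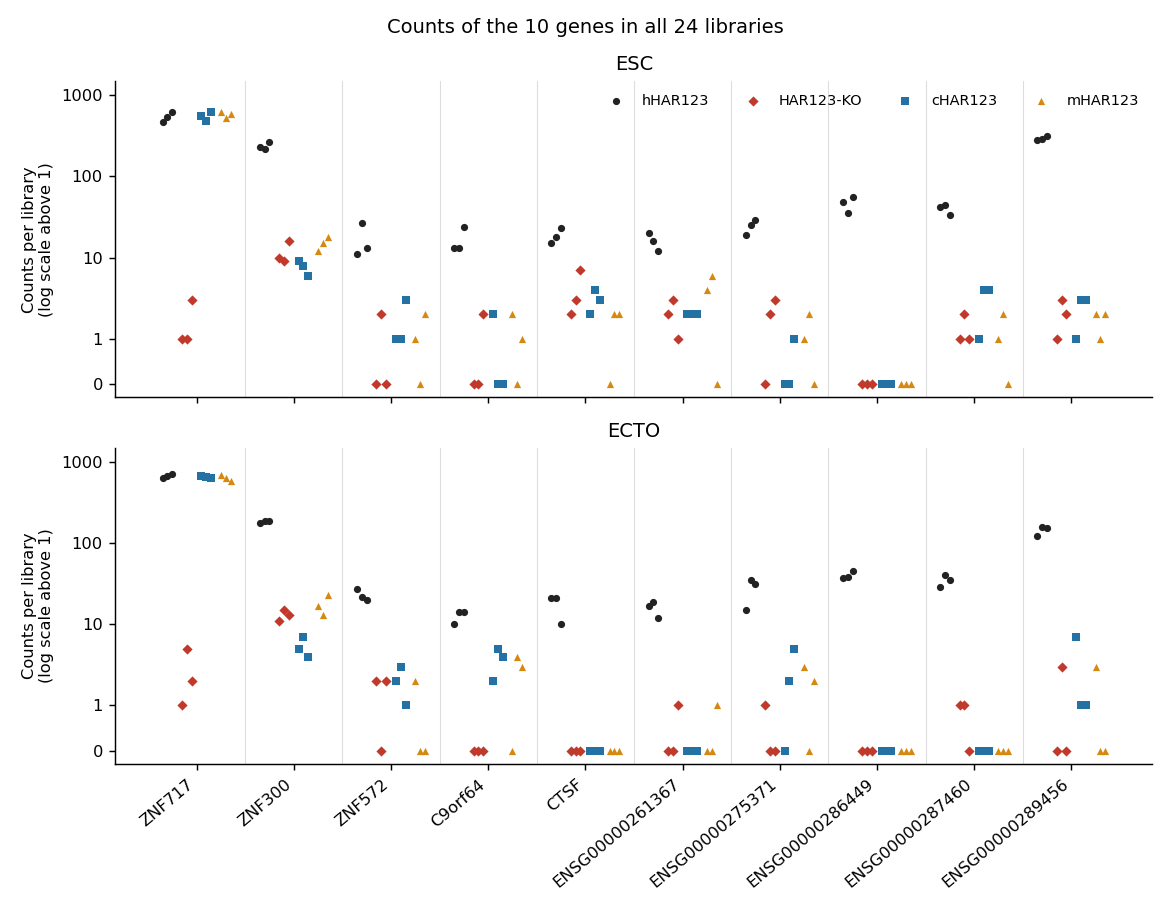
Counts per library (log scale above 1, linear below) of the 10 genes in ESCs (top) and ECTO (bottom), 1 point per library, coloured by genotype with 3 libraries each. The hHAR123 points stand above all edited points for 9 genes, whereas for ZNF717 only the HAR123-KO points are low, at 1 to 5 counts.

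In hHAR123 cells the 10 genes spanned a wide range of levels. In RPKM (CPM divided by the exonic length in kilobases, computed here), ENSG00000289456 was highest in ESCs at 12.2 ± 0.194 (SD, n = 3), followed by ZNF717 at 2.13 ± 0.215 and ZNF300 at 1.61 ± 0.107. The next pair, ENSG00000261367 at 0.876 ± 0.263 and ENSG00000275371 at 0.684 ± 0.108, overlapped in their libraries, as did ENSG00000286449 at 0.342 ± 0.0729 and ENSG00000287460 at 0.268 ± 0.0478. C9orf64 at 0.18 ± 0.059, ZNF572 at 0.156 ± 0.0802 and CTSF at 0.131 ± 0.0214 closed the order, and their libraries overlapped too. ENSG00000289456 therefore stood at the 90.6th percentile of the 36353 genes with a count in hHAR123 ESCs, and CTSF at the 33.0th. In ECTO the first 7 places of the order were the same, with ENSG00000289456 at 8.71 ± 0.551 and ZNF717 at 3.87 ± 0.214.

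For 9 of the 10 genes, at each stage, no edited library reached the lowest hHAR123 library in counts, against 3.05% of the 42359 genes with a count in ESCs and 1.26% of 41644 in ECTO. The choice of genes fixed this separation, so nothing more is read from it, nor from the calls of the 10 genes in these contrasts. The shares of all genes rest on counts not adjusted for depth. The hHAR123 ESC libraries were among the deepest, so the shares in ESCs and ECTO are not compared. A gene was called where the adjusted p of edgeR's quasi-likelihood test was below 0.01 and the log2 fold change exceeded 1 in size. By this rule, the number of the 10 genes called lower in ESCs was 10 in HAR123-KO (0.221% of all genes tested were called lower), 9 in cHAR123 (0.225%) and 9 in mHAR123 (0.199%). In ECTO it was 10 in HAR123-KO (4.52%), 9 in cHAR123 (0.456%) and 9 in mHAR123 (0.429%). DESeq2 called 5, 2 and 2 of them lower in ESCs and 10, 3 and 2 in ECTO, and gave no adjusted p to any of the others that edgeR had called. The 6 comparisons share the hHAR123 libraries of their stage and are therefore not independent of each other. Across all genes, 24 were called lower in all 3 edited genotypes in ESCs, 49 in ECTO and 16 at both stages, and the same 9 genes, without ZNF717, were among each of these.

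ZNF717 (ENSG00000227124, chr3:75678660-75785583 in GRCh38, minus strand) had 464, 538 and 631 counts in the hHAR123 ESC libraries and 1, 1 and 3 in HAR123-KO. The cHAR123 libraries held 557, 484 and 622 counts and the mHAR123 libraries 615, 525 and 590. Only HAR123-KO was near zero. In CPM, which allows for the deeper hHAR123 libraries, ZNF717 was at 16.3 ± 1.64 in hHAR123, 19.7 ± 1.62 in cHAR123 and 18.8 ± 1.21 in mHAR123 (SD, n = 3), so the knock-in means were somewhat above the unedited one. ECTO repeated this split, with 637, 670 and 719 counts in hHAR123, 1, 5 and 2 in HAR123-KO, 680, 657 and 642 in cHAR123, and 694, 632 and 590 in mHAR123. In CPM the ECTO means were 29.6 ± 1.64, 27.9 ± 0.797 and 26.1 ± 0.594 in hHAR123, cHAR123 and mHAR123. HAR123-KO kept 0.357% of the hHAR123 level in ESCs and 0.378% in ECTO.

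The comparisons between edited genotypes were tested. The choice did not use them as contrasts, but it used the low counts of the edited libraries that they compare. The near-zero HAR123-KO counts of ZNF717 are among these, so its p-values against HAR123-KO are not free of the choice. ZNF717 was higher in cHAR123 than in HAR123-KO by 8.29 on the log2 scale in ESCs (SE 0.2, adjusted p = 5.11e-34, edgeR) and by 7.89 in ECTO (SE 0.17, adjusted p = 1.43e-45). It was higher in mHAR123 than in HAR123-KO by 8.22 in ESCs (SE 0.2, adjusted p = 1.57e-26) and by 7.82 in ECTO (SE 0.18, adjusted p = 3.91e-36). Each of the 3 libraries lay on its side of these differences. Over all genes tested, 0.271% and 0.244% were called in either direction in the 2 ESC comparisons and 7.61% and 7.33% in the 2 ECTO comparisons. Between mHAR123 and cHAR123, ZNF717 differed by -0.08 in ESCs (SE 0.06, adjusted p = 0.786) and by -0.07 in ECTO (SE 0.06, adjusted p = 0.559), where 0.158% and 0.261% of all genes were called. ZNF717 has near-identical copies elsewhere in the genome, and 6552 of its 7109 exonic 50-mers (92.2%) occurred once in the nuclear chromosomes of GRCh38, with up to 7 copies for the rest. How the reads of such stretches were assigned is uncertain.

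**Figure D2:**
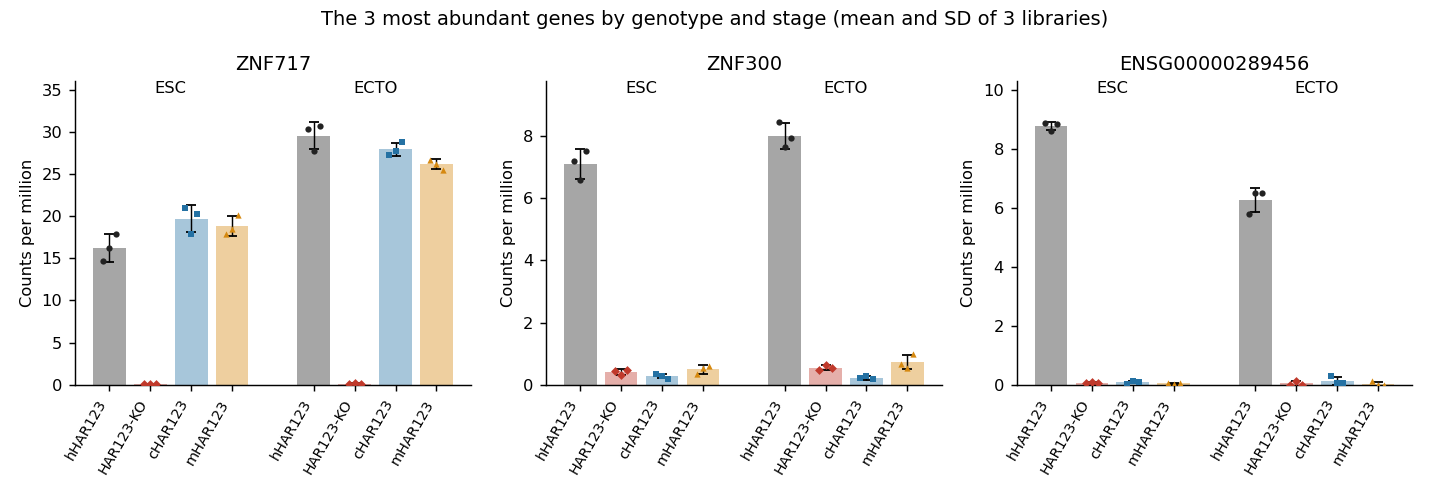
Level in CPM (bars, mean of 3 libraries; whiskers, SD; points, libraries) of ZNF717, ZNF300 and ENSG00000289456 by genotype, in ESCs (left group of each panel) and ECTO (right group). ZNF717 is near zero in HAR123-KO only, whereas ZNF300 and ENSG00000289456 are low in all 3 edited genotypes.

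ZNF300 (ENSG00000145908, chr5:150894392-150904983, minus strand) kept the most counts in edited libraries after ZNF717. The hHAR123 ESC libraries had 228, 219 and 265 counts, against 10, 9 and 16 in HAR123-KO, 9, 8 and 6 in cHAR123, and 12, 15 and 18 in mHAR123. All edited libraries held reads, and none came near the unedited ones. In ECTO hHAR123 had 178, 185 and 186 counts, HAR123-KO 11, 15 and 13, cHAR123 5, 7 and 4, and mHAR123 17, 13 and 23. The level left was 5.74%, 3.83% and 6.86% of hHAR123 in HAR123-KO, cHAR123 and mHAR123 ESCs, and 6.8%, 2.82% and 9.05% in ECTO.

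The libraries labelled cHAR123 held the least ZNF300 at both stages. In ECTO it was higher in mHAR123 than in cHAR123 by 1.69 (SE 0.42, adjusted p = 0.00543, edgeR). This call was lost without any of cHAR123 replicates 1, 2 and 3 or mHAR123 replicates 1 and 3, with log2 fold changes of 1.41 to 1.92. The other differences did not pass. cHAR123 against HAR123-KO in ECTO was -1.26 (SE 0.44, adjusted p = 0.0132), mHAR123 against HAR123-KO was 0.43 in ECTO (SE 0.34, adjusted p = 0.329) and 0.25 in ESCs (SE 0.36, adjusted p = 0.711), and mHAR123 against cHAR123 in ESCs was 0.82 (SE 0.39, adjusted p = 0.514). Of the 10 genes, only ZNF717 and ZNF300 had enough counts in edited cells for tests between edited genotypes.

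ZNF572 (ENSG00000180938, chr8:124973295-124979389, plus strand) was a low gene, with 11, 27 and 13 counts in hHAR123 ESCs and 27, 22 and 20 in ECTO. No edited library exceeded 3 counts at either stage, and the 9 edited libraries of a stage summed to 10 counts in ESCs and 12 in ECTO. Pooled over the 3 edited genotypes, hHAR123 was higher by 13.4-fold in ESCs (95% counting interval 6.71 to 29.5) and 18.1-fold in ECTO (9.72 to 36.7). These intervals, exact and conditional on the summed counts, describe the folds and cover counting error only, since reads are not independent molecules.

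CTSF (ENSG00000174080, chr11:66563464-66568879, minus strand) kept reads in edited ESCs but none in edited ECTO. In ESCs the hHAR123 libraries had 15, 18 and 23 counts, and the edited ones kept 2, 3 and 7 (HAR123-KO), 2, 4 and 3 (cHAR123), and 0, 2 and 2 (mHAR123). Unedited and edited libraries did not overlap, yet edited ESCs kept 17.0% of the hHAR123 level (fold 5.87, interval 3.6 to 9.82). In ECTO, hHAR123 had 21, 21 and 10 counts and all 9 edited libraries had 0, so that hHAR123 was at least 54.5-fold higher than the edited libraries pooled (a floor of 3 counts over the 9). The change of CTSF between stages within edited cells was not tested, as its counts there were too low.

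C9orf64 (ENSG00000165118, chr9:83938311-83956986, minus strand) summed to 7 counts in edited ESCs and 18 in edited ECTO, a difference that was not tested. The ESC libraries held 13, 13 and 24 counts in hHAR123 and at most 2 in any of the 9 edited libraries. In ECTO hHAR123 had 10, 14 and 14 counts, HAR123-KO 0 in each library, cHAR123 2, 5 and 4, and mHAR123 0, 4 and 3. The level left in ECTO was thus 28.0% in cHAR123 (fold 3.57, interval 1.79 to 7.75) and 17.3% in mHAR123 (fold 5.79, interval 2.56 to 15.4), while HAR123-KO was at least 13.2-fold lower. The difference between the knock-in genotypes and HAR123-KO rests on 11 and 7 counts and was not tested.

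ENSG00000286449 (chr19:37304451-37309641, plus strand) had no count in any of the 18 edited libraries. The hHAR123 libraries held 49, 35 and 56 counts in ESCs and 37, 38 and 46 in ECTO. This was the only one of the 10 genes at 0 in all edited libraries, and hHAR123 was at least 122-fold higher in ESCs and at least 127-fold higher in ECTO than the edited libraries pooled.

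ENSG00000289456 (chr6:35563135-35566952, minus strand), the highest of the 10 per length, had 281, 286 and 311 counts in hHAR123 ESCs and 1 to 3 in each edited ESC library. In ECTO it had 122, 157 and 152 counts in hHAR123 and 0 to 7 in edited libraries, the highest being 1 cHAR123 library. The fold over pooled edited libraries was 128 in ESCs (interval 80.4 to 217) and 90.4 in ECTO (54.2 to 163).

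ENSG00000287460 (chr13:54572354-54687547, plus strand) had 42, 45 and 34 counts in hHAR123 ESCs and 29, 41 and 35 in ECTO. Edited ESC libraries held 0 to 4 counts. In ECTO the only counts were 1 in each of 2 HAR123-KO libraries, and cHAR123 and mHAR123 were at 0. The fold over pooled edited libraries was 19.8 in ESCs (interval 11.7 to 35.8) and 165 in ECTO (44.6 to 1380).

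ENSG00000261367 (chr16:30107675-30110541) and ENSG00000275371 (chr16:30110895-30111955) follow each other on the plus strand, and both lie within GDPD3, which is on the minus strand. ENSG00000261367 had 20, 16 and 12 counts in hHAR123 ESCs and 0 to 6 in edited ESCs, and 17, 19 and 12 against 0 to 1 in ECTO. It kept 17.5% of the hHAR123 level in edited ESCs and 1.32% in edited ECTO, from 22 and 2 counts. ENSG00000275371 had 19, 25 and 29 counts in hHAR123 ESCs and 0 to 3 in edited ESCs, and 15, 35 and 31 against 0 to 5 in ECTO. It kept 4.7% and 5.1%. Whether reads were counted by strand is not given in the sources used here, and if they were not, reads of GDPD3 could enter both genes. GDPD3 itself had 69 counts, not adjusted for depth, in hHAR123 ESCs against 91, 99 and 119 in HAR123-KO, cHAR123 and mHAR123. It was not called in any comparison, with log2 fold changes of -0.11 to 0.86. The 0.86, in mHAR123 ESCs, passed the p threshold (adjusted p = 0.00485, edgeR) but not the fold threshold.

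**Figure D3:**
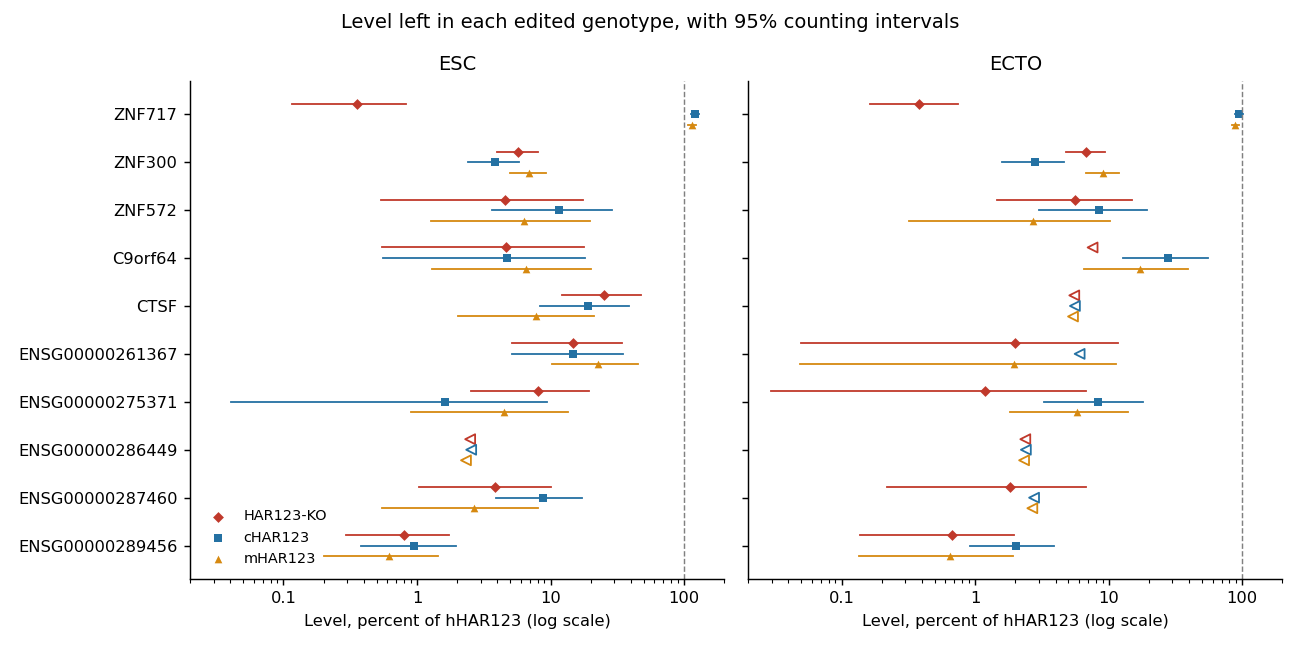
Level left in each edited genotype as a percent of hHAR123 (log scale), from counts summed over 3 libraries, in ESCs (left) and ECTO (right), with 95% counting intervals as lines; open triangles mark upper limits where the edited count was 0 (a floor of 3 counts), and the dashed line is 100%. Only ZNF717 in cHAR123 and mHAR123 reaches the line, at 88.6% to 121%.

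Of the 9 genes that were low in all edited genotypes, those above 0 counts in the pooled edited libraries kept a level that ranged from 0.782% to 17.5% of hHAR123 in ESCs and from 0.606% to 15.1% in ECTO. The 7 further genes called lower in all 3 edited genotypes at both stages kept 6.06% to 26.4% and 4.87% to 37.0%, so the ranges overlapped. Just outside the chosen genes stood REG1A at 6.06% and 4.87%, ENSG00000289069 at 8.43% and 16.2%, and FAR2P2 at 8.82% and 25.1%. Only ZNF572 and ENSG00000286449 had at most 3 counts in each of the 18 edited libraries.

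The 300 bases around the annotated starts (250 before and 50 after) were compared for their CG dinucleotides, the sites of DNA methylation. RefSeq gave a window for ZNF717, ZNF300, C9orf64 (as QNG1) and CTSF. For the 5 lncRNAs the window was read from GRCh38 at the start in the count table. The windows of 5 genes are shown, for the gene that was low in HAR123-KO only (ZNF717), the one with residual reads (ZNF300), the one at 0 in edited ECTO (CTSF), the one at 0 throughout (ENSG00000286449), and the highest lncRNA (ENSG00000289456). They run 5′ to 3′ on the strand of the gene, in GRCh38 (hg38), with CG dinucleotides in capitals.
ZNF717, chr3:75785500-75785799, minus strand: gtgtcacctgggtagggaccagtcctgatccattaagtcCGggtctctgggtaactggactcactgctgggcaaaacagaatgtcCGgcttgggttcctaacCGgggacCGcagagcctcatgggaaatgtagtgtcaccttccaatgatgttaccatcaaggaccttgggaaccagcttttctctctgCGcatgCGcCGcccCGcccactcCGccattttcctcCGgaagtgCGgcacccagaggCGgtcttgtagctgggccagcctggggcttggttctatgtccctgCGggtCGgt
ZNF300, chr5:150904931-150905230, minus strand: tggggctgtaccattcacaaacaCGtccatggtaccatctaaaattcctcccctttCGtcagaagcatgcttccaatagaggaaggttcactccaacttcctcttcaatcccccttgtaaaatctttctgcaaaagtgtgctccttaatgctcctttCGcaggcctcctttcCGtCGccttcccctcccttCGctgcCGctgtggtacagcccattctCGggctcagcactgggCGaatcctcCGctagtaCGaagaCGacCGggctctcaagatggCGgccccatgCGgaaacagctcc
CTSF, chr11:66568557-66568856, minus strand: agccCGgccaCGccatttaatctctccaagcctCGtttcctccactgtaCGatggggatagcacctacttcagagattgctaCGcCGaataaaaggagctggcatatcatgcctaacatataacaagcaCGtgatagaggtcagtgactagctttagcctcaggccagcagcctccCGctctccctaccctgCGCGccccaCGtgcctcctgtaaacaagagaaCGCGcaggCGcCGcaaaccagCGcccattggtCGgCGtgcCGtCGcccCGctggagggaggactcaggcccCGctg
ENSG00000286449, chr19:37304201-37304500, plus strand: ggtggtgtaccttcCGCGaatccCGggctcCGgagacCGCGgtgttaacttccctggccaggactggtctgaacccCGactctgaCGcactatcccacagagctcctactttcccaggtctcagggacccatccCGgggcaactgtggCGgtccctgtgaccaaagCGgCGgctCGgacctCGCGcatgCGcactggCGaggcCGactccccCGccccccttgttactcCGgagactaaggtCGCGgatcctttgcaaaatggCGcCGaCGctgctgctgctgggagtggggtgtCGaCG
ENSG00000289456, chr6:35566903-35567202, minus strand: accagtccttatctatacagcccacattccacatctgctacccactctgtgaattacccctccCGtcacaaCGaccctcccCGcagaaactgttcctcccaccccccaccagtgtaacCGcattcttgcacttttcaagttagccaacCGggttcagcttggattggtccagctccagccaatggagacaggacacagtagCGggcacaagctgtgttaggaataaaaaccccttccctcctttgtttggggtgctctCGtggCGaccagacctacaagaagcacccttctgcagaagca
The letters CG, which read the same on both strands, occurred 14, 15, 22, 27 and 8 times in these windows, and 27 times in that of C9orf64. Of 34943 distinct RefSeq start windows, 50.2% held at least as many as ZNF717, 48.8% as ZNF300, 37.6% as CTSF and 28.1% as C9orf64, with a median of 14. Of 17668 lncRNA start windows, 10.9% held at least as many as ENSG00000286449 and 34.7% as ENSG00000289456, with a median of 4. ENSG00000261367, ENSG00000275371 and ENSG00000287460 had 3, 6 and 11. These are counts of letters only, and DNA methylation was not measured.

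How uniquely reads can be placed was examined over the exons, where 98.3% of the 50-mers of ENSG00000287460 occurred once in the genome. For ENSG00000261367 and ENSG00000275371 the shares were 69.9% and 88.4%, and for ENSG00000286449 3741 of 3939 50-mers did.

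The next question was whether the 10 genes differ between stages in unedited cells. The choice did not use this difference, but it favoured genes with counts in hHAR123 cells, and 9 of the 10 were low in edited cells at both stages, so how the 10 compare with all genes partly follows from it. None of the 10 was called between ECTO and ESC in hHAR123 (45.9% of the 22280 genes tested were), and nothing is read from the 2 shares. At an unadjusted p under 0.05 there were 3, and DESeq2 called 0. ZNF717 was higher in ECTO by 0.57 on the log2 scale (SE 0.07, adjusted p = 5.32e-10, edgeR), and ENSG00000289456 was lower, at -0.77 (SE 0.1, adjusted p = 2.16e-09). Both passed the p threshold but not the fold threshold. ZNF572 was at 0.69 (SE 0.32, adjusted p = 0.0454), which became 1.17 (SE 0.38, adjusted p = 0.00419) and a call without hHAR123 ESC replicate 2. The other 7 lay between -0.14 (C9orf64, SE 0.34) and 0.4 (ENSG00000275371, SE 0.28), with adjusted p of 0.177 to 0.854. A p that misses the threshold does not show equal levels, and the SE of the low genes, up to 0.34, leaves room for differences of that order. In the genotypes that kept ZNF717, its difference between stages was 0.3 in cHAR123 (SE 0.06, adjusted p = 2.55e-05) and 0.31 in mHAR123 (SE 0.06, adjusted p = 7.59e-06), where 42.7% and 41.9% of all genes were called. Whether these differ from hHAR123 was not tested.

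**Figure D4:**
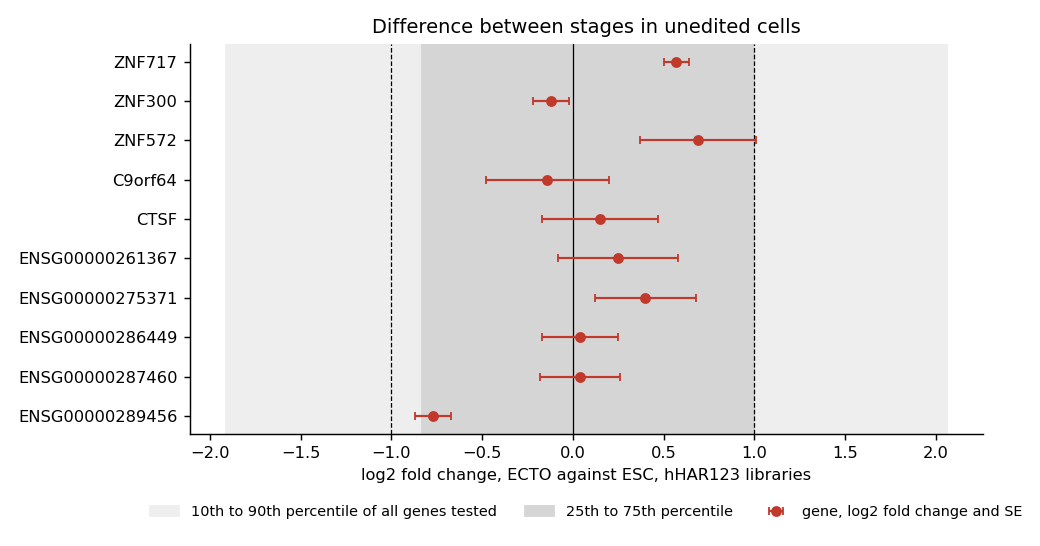
log2 fold change of the 10 genes between ECTO and ESC in hHAR123 libraries (points, edgeR estimate; lines, SE), with the 10th to 90th (light) and 25th to 75th (dark) percentiles of all 22280 genes tested and dashed lines at the fold threshold. All 10 estimates lie between -0.77 and 0.69. The 10th and 90th percentiles, -1.91 and 2.06, give the scale only, since the choice favoured genes present in hHAR123 cells.

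To see whether the low levels extended to the surroundings, the genes within 500 kb of the 10 genes were examined in the 6 comparisons with hHAR123. Of 344 such genes, 181 to 183 were tested per comparison. In ESCs 1 was called lower in HAR123-KO (0.552%, against 0.221% of all genes), 2 in cHAR123 (1.09% against 0.225%) and 1 in mHAR123 (0.546% against 0.199%). In ECTO 5 were called lower in HAR123-KO (2.75% against 4.52%), 3 in cHAR123 (1.66% against 0.456%) and 2 in mHAR123 (1.1% against 0.429%). The share was thus below that of all genes in HAR123-KO ECTO and above it in the other 5 comparisons, on 1 to 5 genes each. In ESCs 1, 0 and 1 were called higher in HAR123-KO, cHAR123 and mHAR123 (0.96%, 0.626% and 1.03% of all genes), and in ECTO 5, 0 and 0 (4.92%, 0.522% and 0.603%). The median log2 fold change of the neighbours was -0.04 to 0.03, close to the -0.01 to 0.01 of all genes tested.

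Among tested neighbours, only YPEL3-DT was called lower in all 3 edited genotypes at both stages. This lncRNA (ENSG00000250616, chr16:30096430-30104116, plus strand) ends 3559 bases before ENSG00000261367 begins, on the same strand. It had 161, 176 and 176 counts in hHAR123 ESCs, 28, 32 and 29 in HAR123-KO, 32, 20 and 34 in cHAR123, and 31, 31 and 21 in mHAR123. In ECTO it had 173, 195 and 201 counts in hHAR123 and 24 to 35 in each edited library. Its log2 fold changes were -2.32, -2.36 and -2.55 in ESCs and -2.97, -2.63 and -2.82 in ECTO (SE 0.14 to 0.16). It was lower in 9 of 9 edited libraries at each stage. ENSG00000261367 and ENSG00000275371 were too, but for them the choice of genes fixed this.

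ENSG00000267605, a lncRNA on the minus strand (chr19:37235507-37304395), starts 56 bases from the start of ENSG00000286449, so the window printed for the latter holds both starts. It had 40, 66 and 64 counts in hHAR123 ECTO and 0 to 7 in each edited library, with log2 fold changes of -3.79, -4.07 and -4.39. In ESCs it did not pass the filter on low counts, with 17, 17 and 6 counts in hHAR123 and 0 to 3 in edited libraries. Without the filter it was called lower there as well, at -3.4, -6.66 and -4.03 (adjusted p = 1.97e-05, 2.57e-08 and 8.72e-07, edgeR). Both genes of the divergent pair were thus low in edited cells.

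The neighbours nearest to each of the 10 among those tested in all 6 comparisons were not called. ACTN3, 130 bases from CTSF, had log2 fold changes of -0.07 to 0.29. ZNF875, 3196 bases from ENSG00000286449 and a zinc finger gene itself, had -0.22 to -0.11, FKBP5, 6633 bases from ENSG00000289456, -0.06 to 0.25, and HNRNPK, 11097 bases from C9orf64, -0.21 to 0.01. SQLE, 19108 bases from ZNF572, had -0.19 to 0.21, SMIM3, 97658 bases from ZNF300, -0.62 to -0.1, and RPL13AP25, 131039 bases from ENSG00000287460, -0.31 to 0.23. LINC00960, which overlaps ZNF717 on the opposite strand, had -0.57 in HAR123-KO ECTO and -0.2 to 0.16 elsewhere, and was not called. In HAR123-KO ECTO it passed the p threshold (adjusted p = 0.00123, edgeR) but not the fold threshold. IRGM, which overlaps ZNF300, had 1 to 12 counts per library and MIR4273, in ZNF717, at most 1, so neither was tested.

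Most other neighbours that were called were called in HAR123-KO ECTO alone, the group with the high neural crest markers, whose part in these calls was not tested. They were CCDC69 (2.62) and CD74 (1.98) near ZNF300, MTSS1 (1.46) and TRIB1 (-1.57) near ZNF572, FRMD3 (1.04) near C9orf64, and PC (1.08), NPAS4 (-1.67) and ENSG00000254510 (-1.01) near CTSF. CCDC69 did not pass the filter on low counts in cHAR123 and mHAR123 ECTO, so it was not tested there. ZNF829, 388160 bases from ENSG00000286449, was called in cHAR123 only, at -1.25 in ESCs and -1.03 in ECTO. LINC00458, 430035 bases from ENSG00000287460, was higher in HAR123-KO (1.16) and mHAR123 (1.17) ESCs.

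**Figure D5:**
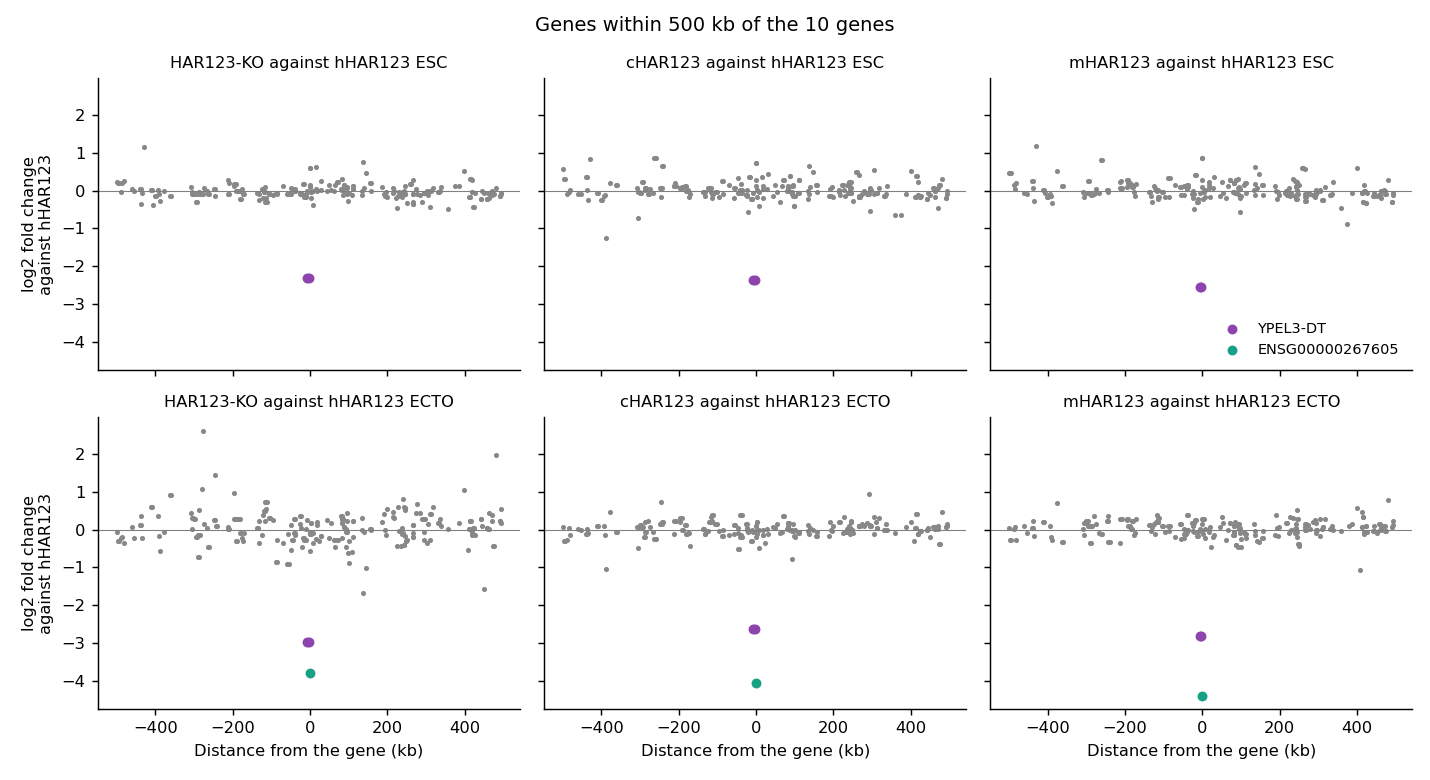
log2 fold change against hHAR123 of the tested genes within 500 kb of the 10 genes, by distance in kb along the strand of the gene (negative, before its start; a gene near 2 of the 10 appears for each), 1 panel per edited genotype and stage. YPEL3-DT lies between -2.97 and -2.32 in all 6 panels and ENSG00000267605 between -4.39 and -3.79 in the 3 ECTO panels, while most other genes lie near 0.

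Gene lists tied to what the genes do were then counted in the same comparisons. None of the listed KRAB co-repressor and heterochromatin genes (20 genes, among them TRIM28 and SETDB1) was called in any comparison, and none of the 18 tested genes of DNA methylation and demethylation was. None of the 12 genes of queuosine and wobble-base tRNA modification was called either, and DESeq2 called 0 in all 3 lists. Of all genes tested, only 0.199% to 4.52% were called lower and 0.522% to 4.92% higher per comparison. Lists this short could hold no call at such shares, so nothing is read from the 0 calls. Small differences were common, since 8 to 13 of the co-repressor genes, 9 to 12 of the methylation genes and 2 to 9 of the tRNA genes had an unadjusted p under 0.05 (edgeR) in a comparison. The median log2 fold change was -0.09 to 0.03 for the co-repressor genes, -0.07 to 0.05 for the methylation genes and -0.07 to 0.15 for the tRNA genes, against -0.01 to 0.01 for all genes. Among 16 cathepsin genes and relatives, CTSC, an activator of serine proteases in granules, was higher in HAR123-KO ECTO by 1.67 (SE 0.05, adjusted p = 1.85e-32, edgeR), and CST6, a cysteine protease inhibitor, was higher in cHAR123 ESCs by 1.07 (SE 0.29, adjusted p = 0.00539), a call that was lost with DESeq2. No other gene of this list was called, and none was called lower, with a list median of 0.05 to 0.34. The median of 0.34 was that of HAR123-KO ECTO, the group with the high neural crest markers, whose part in it was not tested.

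Of 14 genes known to vary in methylation among pluripotent lines, 11 were tested, and 0 to 1 were called lower and 1 to 2 higher per comparison. A single gene is 9.09% of the 11, and of all genes 0.199% to 4.52% were called lower and 0.522% to 4.92% higher. TSPYL5, which encodes a nucleosome assembly protein relative, moved the other way, being higher in all 3 edited genotypes at both stages by 2.01 to 2.55 (adjusted p at most 2.87e-15, edgeR). TSPYL5 had 109, 96 and 119 counts in hHAR123 ESCs and 318 to 489 in edited ESC libraries. CAT, the gene of catalase, had 10, 12 and 16 counts in hHAR123 ECTO, 1, 0 and 0 in HAR123-KO and 0 in the 6 cHAR123 and mHAR123 libraries, and was called lower in each (-4.81, -6.69 and -6.7). In ESCs CAT was too low to be tested, with 25 counts in hHAR123 against 3, 10 and 3. CSMD1 was higher in mHAR123 ESCs by 1.12 (adjusted p = 1.14e-08). The remaining tested genes of the list were not called, and the list median was 0.01 to 0.27.

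Other zinc finger genes were counted too. Of 241 other ZNF genes on chromosome 19, 221 to 224 were tested. Called lower in ESCs were 1 in HAR123-KO, 2 in cHAR123 and 1 in mHAR123 (0.452%, 0.901% and 0.45% against 0.221%, 0.225% and 0.199% of all genes), and in ECTO 2, 3 and 2 (0.893%, 1.34% and 0.893% against 4.52%, 0.456% and 0.429%). Called higher in ESCs were 3, 0 and 0 (1.36%, 0% and 0% against 0.96%, 0.626% and 1.03% of all genes). In ECTO they were 2, 1 and 1 (0.893%, 0.446% and 0.446% against 4.92%, 0.522% and 0.603%). Of 233 elsewhere, 213 to 216 were tested, with 0 called lower except 2 in HAR123-KO ECTO (0.93% against 4.52% of all genes). In the other 5 comparisons 0.199% to 0.456% of all genes were called lower. Of those elsewhere, 0 were called higher in ESCs and 4, 1 and 1 in ECTO (1.86%, 0.463% and 0.463% against 4.92%, 0.522% and 0.603%). The median was -0.08 to 0.04 on chromosome 19 and -0.05 to 0.01 elsewhere. ZNF283 was lower in all 3 edited genotypes at both stages, at -1.72 to -3.43, and ZNF560 in ECTO at -3.63, -2.73 and -3.3. ZNF575 was higher in HAR123-KO ECTO (1.38), ZNF469 in ECTO (2.08, 1.15 and 1.55), and ZNF703 in HAR123-KO ECTO (1.66), where ZNF138 was lower (-1.35). ZNF283 was thus the only other gene of this class called lower in all 6 comparisons.

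To place the 10 genes in the whole table, genes with at least 10 counts in each hHAR123 library and at most 3 in each edited library of a stage were counted. There were 7 in ESCs (0.0114% of 61551 genes), 5 of them among the 10, and 10 in ECTO (0.0162%), again 5 of them. Only ENSG00000286449 and ZNF572 met this at both stages. The 7 others at either stage were CAT, CLEC2A, ENSG00000234710, ENSG00000289578, NF1P8, REG1A and ZNF560. The limits resemble the choice of the 10 genes, so the places of the 10 among these genes follow from it and nothing is read from them. The same limits found no gene on in cHAR123 alone or in mHAR123 alone, and 4 on in HAR123-KO alone, all in ECTO (ENSG00000248943, ENSG00000260364, ERG and EZHIP). In the other direction, no gene was at most 3 in hHAR123 and at least 10 in every other library of a stage. ZNF717 was the only gene off in HAR123-KO alone in ESCs, and 5 were off there alone in ECTO (ENSG00000279398, MYH2, OSTM1-AS1, RPS3AP48 and SKOR1-AS1). At these limits no gene was off in cHAR123 alone or in mHAR123 alone. With limits of 30 and 10 counts, LINC01090 was off in cHAR123 alone in ESCs, and LINC01090 and H4C13 in ECTO. These genes were named after their values were seen.

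The genes most like the 10 were found by the correlation of log2 CPM with their mean standardized profile over the 24 libraries, among 26056 genes. The 5 of highest Pearson r outside the list were YPEL3-DT (0.976), ENSG00000234710 (0.959), ENSG00000286329 (0.926), CLEC2A, a C-type lectin gene (0.911), and FAR2P2, a pseudogene (0.909). All but ZNF717 of the 10 had an r of 0.877 to 0.985, and ZNF717 had 0.438, at rank 546. The profile was made from the 10 genes themselves, so their own r partly follows from this and from the choice. By Spearman's rho ZNF717 was not the least alike, at 0.462 against 0.443 for ZNF300, and the rest lay between 0.574 and 0.759. The points share libraries, depth and the split between hHAR123 and edited cells, so these values describe the likeness only. ENSG00000234710 had 18, 14 and 10 counts in hHAR123 ESCs and 2 in all 9 edited ESC libraries together. CLEC2A had 14, 20 and 23 counts in hHAR123 ECTO and 0 in the 9 edited ECTO libraries. FAR2P2 was lower in all 6 comparisons, at -3.65, -3.28 and -3.67 in ESCs and -2.02, -1.79 and -2.08 in ECTO. How uniquely the reads of this pseudogene can be placed was not examined, so its counts are uncertain.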

How the data were processed

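RNA was depleted of ribosomal RNA, made into directional libraries and sequenced as paired-end reads by the authors, who aligned them to GRCh38 with STAR 2.5.2b and ran featureCounts (Subread) on Ensembl exons. The deposited table holds raw, unnormalized counts, and whether strand was used in counting is not given in the sources used here. A gene whose entry was broken over 3 lines was left out. Of the 61551 genes used, 61398 were also in the GENCODE annotation used for names, 99.94% of them at an overlapping position. Samples were grouped by genotype and stage from their titles. Depth limits precision for genes under about 10 counts per library.

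Counts were analysed with edgeR 4.0.16 in R 4.3.3. Each fit held only the 6 libraries compared and used filterByExpr, TMM scaling and the quasi-likelihood test, with p-values adjusted by Benjamini-Hochberg over all genes tested. Calls needed an adjusted p below 0.01 and a log2 fold change beyond 1 in size, the thresholds of the study's methods. CPM and RPKM were computed from library totals. Fold ratios of summed counts have exact 95% intervals, and a count of 0 was taken to allow 3 counts. The fitting scripts were tested on simulated data. Alternatives were DESeq2 1.42.0, DESeq2 size factors, no filter, a replicate block, a threshold of 0.05 and leaving out each library. The 10 genes and the gene lists were chosen with earlier results of these data known. The text names the 10 genes, the 5 other genes most like them, neighbours within 500 kb that overlap one of them or were called, and up to 3 called genes of each list. The nearest tested neighbours, LINC01090, and the genes counted as on or off in 1 genotype or as lower at both stages were named after their values were seen.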

Additional observations from a re-analysis of the deposited data

Results flagged for a closer look

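ZNF717 was picked out because the 3 edited genotypes did not show the same change from hHAR123, as tested directly between them. It was higher in cHAR123 than in HAR123-KO by 8.29 in ESCs and 7.89 in ECTO on the log2 scale, and higher in mHAR123 than in HAR123-KO by 8.22 and 7.82 (adjusted p at most 1.57e-26, edgeR). The low HAR123-KO counts were among those used to choose the gene, so these p-values are not free of the choice. All 6 libraries of cHAR123 and all 6 of mHAR123 held 484 to 694 counts, and all 6 of HAR123-KO held 1 to 5. The listing of ZNF717 with genes low in every edited genotype was therefore at odds with these counts.

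ZNF300 was picked out because mHAR123 and cHAR123 differed in ECTO, by 1.69 (adjusted p = 0.00543, edgeR), from 17, 13 and 23 counts against 5, 7 and 4. The difference rests on few counts and on column labels that the study's own table exchanges. Groups of 3 libraries are too small for a test of outlying libraries.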

How the results depend on the processing

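DESeq2 called 5, 2 and 2 of the 10 genes lower in HAR123-KO, cHAR123 and mHAR123 ESCs and 3 and 2 in cHAR123 and mHAR123 ECTO, because it gave no adjusted p to 5, 7, 7, 6 and 7 of the genes that edgeR had called. It called 0 genes between mHAR123 and cHAR123 in ECTO, where ZNF300 had no adjusted p, and 0 cathepsin genes in ESCs. An adjusted p of 0.05 gave 2 calls between cHAR123 and HAR123-KO in ECTO. Same-numbered libraries did not deviate together (correlations from -0.0533 to 0.0575), so the replicate number only names a library. With the replicate block, the number called between mHAR123 and cHAR123 in ECTO was 0 (ZNF300 at 1.67, adjusted p = 0.011), and no other count of calls moved by over 1.5 times. Without a filter 2 neighbours, in place of 1, were lower in all 3 edited genotypes in ESCs. Within 200 kb, 1 neighbour in ESCs and 4 in ECTO were called in at least 1 edited genotype, against 3 and 11 within 500 kb. Limits of 10 and 30 counts left 4 genes on only in hHAR123 in ECTO, and Spearman's rho kept 1 of the 5 most similar genes, and a profile without ZNF717, an alternative chosen after seeing the data, kept 4.

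Leaving out each library gave 8 to 9 of the 10 genes called lower where 9 were called. In cHAR123 ECTO the number was 8 without any single library, and in cHAR123 ESCs it stayed at 9. It gave 0 to 1 calls between mHAR123 and cHAR123 in ECTO and 0 to 1 between stages in hHAR123. It gave 1 to 2 neighbours lower in all 3 edited genotypes in ESCs and 3 to 5 called in at least 1. Of the lists, 1 to 3 methylation-variable genes and 0 to 1 cathepsin genes were called in ESCs (CST6 was lost without cHAR123 replicate 3 or any hHAR123 replicate), and 0 to 1 tRNA modification genes in ECTO, where 1 was called without HAR123-KO replicate 3 or hHAR123 replicate 1.

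Small stage differences in hHAR123 changed sign. ENSG00000286449 and ENSG00000287460, at 0.04 each, were at -0.02 each with DESeq2 and with DESeq2 size factors. Without single libraries ENSG00000286449 lay between -0.14 and 0.13, ENSG00000287460 between -0.12 and 0.11, C9orf64 between -0.3 and 0.15, and CTSF between -0.07 and 0.43. No result tested between edited genotypes reversed. Depth limits the low genes, whose edited libraries hold 0 to 7 counts.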

Other observations

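Summed over the 9 edited libraries of a stage, CTSF had 25 counts in ESCs and 0 in ECTO, ENSG00000261367 22 and 2, ENSG00000287460 16 and 2, C9orf64 7 and 18, and ZNF300 103 and 108. The libraries differ in depth, and the 1 or 2 of the 10 genes with enough counts for a test between stages within an edited genotype were not called. ZNF829, a zinc finger gene, and LINC01090 were low in the libraries labelled cHAR123 at both stages. LINC01090 held 10 and 6 counts there, against 810 and 534 in those labelled mHAR123, and ZNF829 held 263 and 541 against 551 and 926. ZNF300 held 23 and 16 counts in the libraries labelled cHAR123, against 45 and 53 in those labelled mHAR123.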
